A study of Homo sapiens with 8 samples.

Results

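The genes described here are *MYC*, its downstream noncoding neighbor *PVT1*, and 8 genes of the *MAX* and *MLX* network. They are *MAX*, *MNT*, *MXI1*, *MXD3*, *MXD4*, *MGA*, *MLX* and *MLXIP*. Members were taken as the rows of the gene table whose symbol equals one of these names, which gave 10 of 60754 rows. All 10 were among the 15614 genes that reached 1 TPM, an abundance corrected for transcript length and library total, in at least 1 library, and all 10 were therefore tested.

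MYC encodes a basic helix-loop-helix leucine zipper transcription factor that binds DNA only as a heterodimer with MAX. The pair recognizes the E-box and drives genes of growth, ribosome production and metabolism. MAX also pairs with MNT, with the MXD proteins, with MXI1 and with MGA, and these partners recruit corepressors and compete with MYC for MAX and for E-boxes. MLX is a relative of MAX that pairs with MLXIP (MondoA), a sensor of glucose metabolites, and with some of the MXD proteins and MNT. MYC is an oncogene of many B-lineage leukemias, and PVT1 is a long noncoding RNA gene whose locus holds enhancers and is often gained together with MYC.

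RNA was measured in SEM, an established line of human B-ALL (acute lymphoblastic leukemia of the B lineage) with a *KMT2A* rearrangement. Both *CTCF* alleles carried a miniAID-mClover3 tag, and the cells expressed OsTIR1(F74G) with Zeocin resistance from a lentiviral cassette under the MND promoter, so that the auxin analog 5-Ph-IAA triggers degradation of the tagged architectural protein CTCF. Parental and resistant libraries were compared in each of 2 single-cell clones, labelled C17.2 and C3.2, with 2 libraries in each of the 4 groups. Parental cells were untreated. Resistant cells came from cultures kept until day 36 in 5-Ph-IAA at 1 μM with Zeocin at 100 μg/ml, and then taken off treatment. The resistant cells of C17.2 carried a nonsense change in *CTCF* and held a truncated, untagged protein beside the tagged full-length one, which returned once treatment ended. In those of C3.2, a missense change lay in the tag and CTCF was full length. The tag knock-in, OsTIR1(F74G) and resistance cassette were shared by all 4 groups. Each group is a single clone, and the labels do not say that its libraries came from separate cultures, so that p-values measure only the spread between these libraries, which may be technical.

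Markers of the labelled cell type were present in all 8 libraries. Of 9 B-ALL markers, 8 stood at or above 1 TPM in every library, with *BLNK* under 1 TPM. Of 10 markers of other cell types, 8 stayed under 1 TPM in every library and 3 (*CD3D*, *EPCAM* and *COL3A1*) were listed at 0 throughout. The exceptions were *COL1A1* at 2.24 to 7.45 TPM and *LYZ* at 0.47 to 2.18 TPM. The summed B-ALL markers lay between 702.8 and 887.5 TPM, and were lower in the resistant libraries of both clones. Much of this fall lay in *IGLL1*, which went from 89.6 and 80.6 to 20.1 and 20.5 TPM in C17.2. In C3.2 it went from 143 and 166 to 30.0 and 31.7 TPM. Of the 8 tested markers, 1 in C17.2 and 3 in C3.2 had a positive log2 fold change. The summed markers of other cell types were 3.34 to 3.81 TPM in parental and 8.64 to 8.83 TPM in resistant C17.2, and 3.19 to 3.61 TPM in parental and 5.25 to 5.62 TPM in resistant C3.2. The part of either list in the results below was not tested. RNA of *CTCF* itself stood at 32.2 to 35.4 TPM in the parental and at 41.5 to 54.7 TPM in the resistant libraries, and this RNA carries no information on the protein. The factors that scaled the libraries ran from 0.893 to 1.16, and replicate libraries correlated at a Pearson r of 0.968 to 0.979 across genes. In bulk libraries, fewer cells of a type and less RNA per cell cannot be told apart.

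The sequence that the network reads was searched first. The E-box CACGTG reads the same on both strands, and it was looked for in RefSeq promoter windows of GRCh38.p14 that reach from 250 bases before to 50 bases after a gene start. Of 35116 windows, 7.26% held it. Counted by gene, 12.9% of tested genes with a window held it in at least 1 window. Windows were at hand for 8 of the 10 members, all except *MYC* and *PVT1*, and 3 of those 8 held an E-box. They are the antagonist genes *MNT* and *MXD4* and the *MAX* relative *MLX*. The E-box lay 193 bases before the start in *MNT*, 238 before in *MXD4* and 50 before in *MLX*, and these stretches are shown because the genes themselves encode proteins that bind it. Capitals mark the E-box, and each stretch is written 5′ to 3′ on the gene's strand.
MNT, chr17:2401236-2401265, minus strand: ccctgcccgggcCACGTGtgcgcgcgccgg
MXD4, chr4:2262330-2262359, minus strand: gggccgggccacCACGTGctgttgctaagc
MLX, chr17:42567038-42567067, plus strand: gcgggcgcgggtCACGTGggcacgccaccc
The windows of *MAX*, *MXI1*, *MXD3*, *MGA* and *MLXIP* did not hold these letters. A match is a description of the letters and not evidence of binding in SEM cells.

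TPM values divide by gene length, so levels can be compared between genes. *MYC* had the highest mean level over the 8 libraries, 119 TPM, followed by *MAX* at 71.4 TPM. Then came *MLXIP* at 27.0 TPM, *PVT1* at 25.5 TPM, *MGA* at 22.3 TPM, *MXD3* at 21.7 TPM and *MLX* at 20.2 TPM. *MNT* at 11.6 TPM, *MXD4* at 7.5 TPM and *MXI1* at 5.71 TPM were the lowest. *MYC* exceeded *MAX* in 7 of 8 libraries, the exception being the second resistant library of C17.2. The ranges of *MLXIP*, *PVT1*, *MGA*, *MXD3* and *MLX* overlapped from one to the next, so that their order is not resolved. *MAX* exceeded *MLXIP*, *MLX* exceeded *MNT*, and *MNT* exceeded *MXD4* in 8 of 8 libraries with no overlap of their ranges. *MXD4* exceeded *MXI1* in 8 of 8 libraries although their ranges over libraries overlapped.

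**Figure D1:**
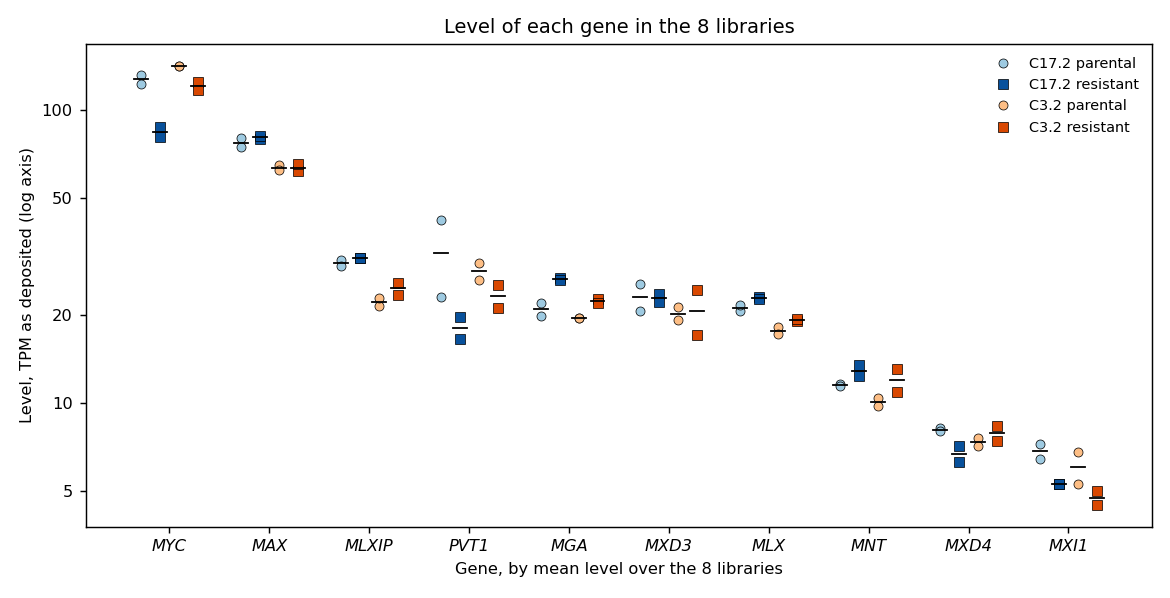
Level of each of the 10 genes in the 8 libraries, in TPM as deposited on a log axis, ordered by the mean over libraries. Each point is 1 library, horizontal bars are means of 2 libraries, circles are parental and squares resistant. The 2 resistant libraries of C17.2 hold the lowest *MYC* values, 88.0 and 80.9 TPM.

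Of the wider family, other genes were low. *MYCN* did not exceed 0.03 TPM, *MYCL* 0.64 TPM or *MLXIPL* (ChREBP) 0.06 TPM in any library, and none was tested. *MXD1*, the founding MXD antagonist, stood between 1.67 and 2.98 TPM and did not pass the test in either clone (adjusted p = 0.500 in C17.2 and 0.306 in C3.2, limma). *MYC* was thus the *MYC* paralog with the most RNA in these cells.

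The members are spread over the genome. In GRCh38 with Gencode 44, *MYC* and *PVT1* lie side by side on the plus strand, *MYC* at chr8:127735434-127742951 and *PVT1* at chr8:127794526-128187101. The partners that form the *MAX* branch lie elsewhere, with strands in parentheses: *MAX* at chr14:65006174-65102695 (minus), *MNT* at chr17:2384073-2401104 (minus), *MXI1* at chr10:110207605-110287365 (plus), *MXD3* at chr5:177301461-177312757 (minus), *MXD4* at chr4:2247432-2262109 (minus) and *MGA* at chr15:41621134-41773081 (plus). The *MLX* branch comprises *MLX* at chr17:42567072-42573239 (plus) and *MLXIP* at chr12:122078756-122147344 (plus). Values are per gene, over all its annotated transcripts. Of the 10 genes, 4 overlap another gene that reached 1 TPM in some library, and these overlaps are given beside their values.

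The main question was which of these genes differ between resistant and parental cells of the same clone. In C17.2, *MYC*, *PVT1*, *MXI1* and *MXD4* fell and *MGA* rose, while *MAX*, *MNT*, *MXD3*, *MLX* and *MLXIP* did not pass the test. In C3.2, *MYC* alone fell. Across all tested genes, limma at an adjusted p under 0.05 called 27.3% in C17.2, with 13.4% higher and 13.9% lower. In C3.2 limma called 11.4%, with 4.46% higher and 6.9% lower. The change differed between the clones for 9.91% of genes, with 4.92% more positive and 5% more negative in C17.2. Against these shares, 5 of 10 members were called in C17.2 (1 higher and 4 lower), 1 of 10 in C3.2 (lower), and 1 of 10 for the difference between the clones (lower). The median log2 fold change of the members was -0.13 in C17.2 and -0.02 in C3.2, beside 0 over all tested genes in each.

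These counts depend on how libraries are scaled. On TPM as deposited, the median log2 fold change of all tested genes was 0.13 in C17.2 and 0.05 in C3.2, and 2 members were called in C17.2 (*MYC* and *MGA*) and 0 in C3.2. Over all genes this setting called 32.8% in C17.2 (5128) and 7.94% in C3.2 (1239). The share of called genes that were higher was then 75.1% in C17.2 against 49.1% with scaling, and 57.8% in C3.2 against 39.3%. After rescaling over protein-coding genes, it was 64.5% in C17.2 and 70.1% in C3.2. After quantile normalization, it was 50.7% in C3.2. For the difference between clones it was 64.0% on TPM as deposited and 49.6% with scaling. Fold changes below are on log2(scaled TPM + 1), which understates the change of low genes, with standard errors (SE) and two-sided adjusted p-values from limma over all 15614 genes. The exact permutation test of 2 libraries against 2 cannot give a p below 0.333.

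*MYC* (ENSG00000136997.19) lies on the plus strand of chromosome 8. Parental C17.2 libraries held 132 and 123 TPM, and resistant ones 88.0 and 80.9 TPM. In C3.2 the RNA stood at 141 and 142 TPM in parental and at 125 and 117 TPM in resistant libraries. The groups did not overlap in either clone, and every resistant library of C17.2 lay below every other library. The fall was -0.75 on the log2 scale in C17.2 (SE 0.059, adjusted p = 0.000433, limma) and -0.29 in C3.2 (SE 0.059, adjusted p = 0.0287, limma). The difference of the falls was itself past the threshold, at -0.46 (95% confidence interval -0.66 to -0.26, adjusted p = 0.0225, limma). The call in C17.2 held under all 8 alternative settings and without each of the 8 libraries in turn. That in C3.2 held under 2 of 8 settings (adjusted p 0.0257 to 0.124) and without 2 of 8 libraries, and was lost without either of its own parental or resistant libraries or either parental library of C17.2 (adjusted p up to 0.151). The antisense lncRNA gene *CASC11*, which overlaps *MYC* on the opposite strand, did not exceed 0.18 TPM.

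*PVT1* (ENSG00000249859.11) starts 59.1 kb after the *MYC* start on the same strand. *PVT1* RNA stood at 42.0 and 23.0 TPM in parental and at 16.5 and 19.6 TPM in resistant libraries of C17.2. In C3.2 the values were 26.4 and 30.1 TPM in parental and 25.2 and 21.0 TPM in resistant libraries. The resistant libraries were the lower in both clones without overlap, and the first parental library of C17.2 stood apart from the other 7, none of which exceeded 30.1 TPM. The fall in C17.2 was -0.91 (SE 0.23, adjusted p = 0.0305, limma). Without the first parental library it was -0.53 (adjusted p = 0.0609) and without the second -1.29 (adjusted p = 0.00821). It was also lost without either resistant library of C17.2 or either parental library of C3.2 (adjusted p up to 0.155), on TPM as deposited (adjusted p = 0.0653), with no filter on low values (adjusted p = 0.0741) and with the clone fitted alone (adjusted p = 0.116). In C3.2 the log2 fold change was -0.34 (SE 0.23, adjusted p = 0.386, limma). The SE is the same in each clone because the 4 groups share 1 estimate of the spread, so it is not that of C3.2 alone. The difference between the clones, -0.56, had a 95% confidence interval from -1.35 to 0.23 (adjusted p = 0.328). *PVT1* and *MYC* lay in the same order between resistant and parental libraries in both clones. The 5 miRNA genes inside *PVT1* were listed at 0 in every library, and the snRNA gene *RNVU1-32*, which overlaps it on the same strand, was listed at 0 to 6.32 TPM.

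**Figure D2:**
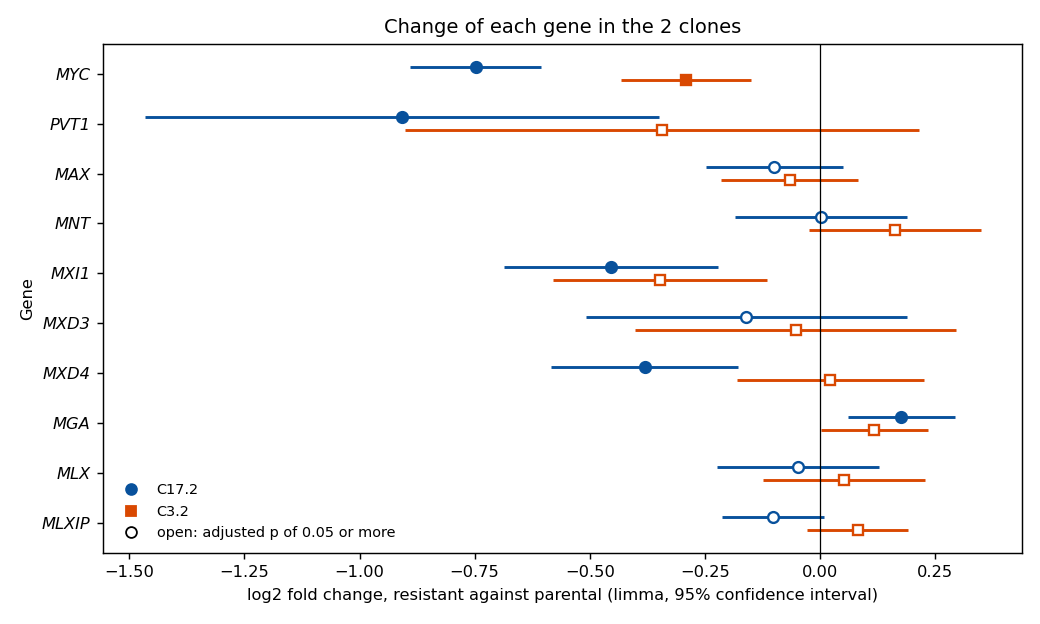
Log2 fold change of each gene, resistant against parental, in C17.2 (circles) and C3.2 (squares), with 95% confidence intervals from limma. Filled symbols have an adjusted p under 0.05: *MYC*, *PVT1*, *MXI1*, *MXD4* and *MGA* in C17.2 and *MYC* in C3.2.

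*MAX* is the shared partner of the *MYC* and MXD branches. It stood at 80.2 and 74.9 TPM in parental and at 79.9 and 81.8 TPM in resistant libraries of C17.2. The C3.2 clone had it at 65.0 and 62.3 TPM in parental and at 61.9 and 65.4 TPM in resistant libraries. Values overlapped in both clones on TPM as deposited, and after scaling the resistant libraries of C17.2 lay below the parental ones. The log2 fold change was -0.10 in C17.2 (95% confidence interval -0.25 to 0.05, adjusted p = 0.285, limma) and -0.07 in C3.2 (adjusted p = 0.537), but 0.06 in C17.2 on TPM as deposited and 0.04 in C3.2 after rescaling over protein-coding genes. *FNTB*, which overlaps *MAX* on the opposite strand, stood at 6.97 to 11.3 TPM.

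The *MAX* partners that oppose MYC moved unevenly. *MXI1*, which binds the SIN3 corepressor scaffold, stood at 7.21 and 6.45 TPM in parental and at 5.26 TPM in both resistant libraries of C17.2. Libraries of C3.2 held it at 5.29 and 6.77 TPM in parental and at 4.99 and 4.48 TPM in resistant libraries. All 4 resistant values lay below all 4 parental values, though narrowly between resistant C17.2 (5.26 TPM) and the first parental library of C3.2 (5.29 TPM). The fall was -0.45 in C17.2 (SE 0.096, adjusted p = 0.0161, limma), and -0.32 with adjusted p = 0.0738 on TPM as deposited. The call was lost without any single library of C17.2 (adjusted p up to 0.101). In C3.2 the log2 fold change was -0.35 (adjusted p = 0.0700). The 2 changes differed by -0.11 (95% confidence interval -0.44 to 0.22).

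*MXD4*, a further SIN3-binding antagonist with an E-box in its promoter window, was at 8.17 and 7.99 TPM in parental and 7.10 and 6.27 TPM in resistant libraries of C17.2. C3.2 gave 7.58 and 7.14 TPM in parental and 8.33 and 7.38 TPM in resistant libraries. The groups were apart in C17.2 and overlapped in C3.2. *MXD4* fell by 0.38 on the log2 scale in C17.2 (SE 0.084, adjusted p = 0.0186, limma). The adjusted p was 0.0691 on TPM as deposited, 0.0665 with the clone fitted alone, and up to 0.108 without either parental library or the second resistant library of C17.2. The log2 fold change in C3.2 was 0.02 (adjusted p = 0.901). The difference between the clones was -0.40 (95% confidence interval -0.69 to -0.12) and missed the threshold after adjustment (adjusted p = 0.0866).

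*MNT*, the widely expressed antagonist that pairs with both MAX and MLX, gave 11.6 and 11.4 TPM in parental and 12.3 and 13.4 TPM in resistant libraries of C17.2. In C3.2 the values were 10.4 and 9.76 TPM in parental and 13 and 10.9 TPM in resistant libraries. On TPM the resistant libraries lay above the parental in both clones, and after scaling they overlapped in C17.2. The log2 fold change was 0.00 in C17.2 (95% confidence interval -0.18 to 0.19, adjusted p = 0.998, limma) and 0.16 in C3.2 (adjusted p = 0.233).

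*MXD3*, an antagonist linked to the cell cycle and to precursor B-cell leukemia, gave 25.6 and 20.6 TPM in parental and 23.6 and 22.1 TPM in resistant libraries of C17.2. In C3.2 the values were 19.1 and 21.2 TPM in parental and 24.2 and 16.99 TPM in resistant libraries. The groups overlapped in both clones, and the replicate spread of *MXD3* in resistant C3.2 was wide (20.6 ± 5.11 TPM, SD, n = 2). The log2 fold change was -0.16 in C17.2 (95% confidence interval -0.51 to 0.19, adjusted p = 0.459, limma) and -0.05 in C3.2 (adjusted p = 0.858), the latter 0.01 on TPM as deposited. *MXD3* overlaps *RAB24* on the same strand (9.37 to 11.9 TPM) and *PRELID1* on the other (58.5 to 88.5 TPM).

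The corepressors that MXD proteins and *MNT* recruit were examined as a list of 17 SIN3 and NCOR complex genes, all tested. In C17.2, 3 were higher, 0 lower and 14 not called. The 3 were the deacetylase *HDAC3* (0.38, adjusted p = 0.0171), the SIN3-associated *SAP18* (0.32, adjusted p = 0.0473) and the histone-binding *RBBP7* (0.19, adjusted p = 0.0223), all from limma. In C3.2, 2 were lower, *SAP30* (-0.44, adjusted p = 0.0121) and *RBBP4* (-0.24, adjusted p = 0.0179), and 15 were not called. The median log2 fold change of the list was -0.05 in each clone, but 0.11 in C17.2 and 0.02 in C3.2 on TPM as deposited, where 6 and 0 were called beside 32.8% and 7.94% of all tested genes. The 3 of 17 called in C17.2 with scaling were a smaller share than the 27.3% of all tested genes.

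*MGA* pairs with MAX inside the repressive complex PRC1.6, which silences germline genes. It stood at 22.02 and 19.8 TPM in parental and at 26.7 and 26.4 TPM in resistant libraries of C17.2. For C3.2 it stood at 19.6 and 19.5 TPM in parental and at 22.7 and 21.9 TPM in resistant libraries. Resistant libraries were the higher in both clones without overlap. *MGA* rose by 0.18 in C17.2 (SE 0.048, adjusted p = 0.0383, limma). The adjusted p was 0.0511 after quantile normalization, 0.0775 with the clone fitted alone, 0.0658 without the intensity trend and up to 0.143 without any single library other than the resistant ones of C3.2. In C3.2 the log2 fold change was 0.12 (adjusted p = 0.176), and 0.22 with adjusted p = 0.0340 after rescaling over protein-coding genes. The difference between the clones was 0.06 (95% confidence interval -0.11 to 0.22, adjusted p = 0.630).

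Of 10 other genes of PRC1.6, all tested, 3 were higher, 1 lower and 6 not called in C17.2. *YAF2*, which binds the *RING1* ubiquitin ligases, was higher by 0.27 (adjusted p = 0.00992, limma). The chromatin reader *CBX3* was higher by 0.26 (adjusted p = 0.0179) and the E2F partner *TFDP1* by 0.24 (adjusted p = 0.00541). *TFDP2*, a paralog of *TFDP1*, was lower, at -0.66 (adjusted p = 0.00868). In C3.2, *RYBP*, a paralog of *YAF2*, was higher (0.37, adjusted p = 0.0217), the ubiquitin ligase *RNF2* was lower (-0.36, adjusted p = 0.0319), and 8 were not called. The shares called over all tested genes were 27.3% in C17.2 and 11.4% in C3.2. The change differed between the clones for *CBX3* (0.43, adjusted p = 0.0233) and *TFDP1* (0.29, adjusted p = 0.0240).

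*MLX* and *MLXIP* form the glucose-responsive arm. *MLX* was at 20.6 and 21.6 TPM in parental and 23.0 and 22.6 TPM in resistant libraries of C17.2, and at 18.1 and 17.17 TPM in parental and 19.04 and 19.3 TPM in resistant libraries of C3.2. *MLXIP* was at 30.7 and 29.5 TPM in parental and 31.3 and 31.2 TPM in resistant libraries of C17.2, and at 21.5 and 22.8 TPM in parental and 25.8 and 23.5 TPM in resistant libraries of C3.2. On TPM as deposited, resistant libraries lay above parental ones for both genes in both clones. After scaling this no longer held in C17.2, where *MLX* overlapped and the resistant *MLXIP* values lay below. The log2 fold change of *MLX* was -0.05 in C17.2 (adjusted p = 0.679, limma), or 0.11 on TPM as deposited, and 0.05 in C3.2 (adjusted p = 0.696). That of *MLXIP* was -0.10 in C17.2 (adjusted p = 0.152), or 0.05 on TPM as deposited, and 0.08 in C3.2 (adjusted p = 0.302). The *MLXIP* changes differed by -0.18 between the clones (95% confidence interval -0.34 to -0.03), which missed the threshold after adjustment (adjusted p = 0.132). *PSMC3IP* overlaps *MLX* on the opposite strand at 7.37 to 12.8 TPM.

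*TXNIP* and *ARRDC4* are arrestin-family genes that restrain glucose uptake and are the best known targets of the MLXIP-MLX pair. *TXNIP* stood at 58.5 and 58.4 TPM in parental and at 28.9 and 27.5 TPM in resistant libraries of C17.2, and at 29.0 and 31 TPM in parental and at 23.4 and 25.0 TPM in resistant libraries of C3.2. Its values in resistant C17.2 came close to those in parental C3.2. *TXNIP* fell by 1.18 on the log2 scale in C17.2 (SE 0.072, adjusted p = 0.00016, limma) and by 0.36 in C3.2 (adjusted p = 0.0267), with a difference of -0.82 (adjusted p = 0.00662). Its call in C3.2 was lost after rescaling over protein-coding genes and with no filter on low values. *ARRDC4* fell by 0.54 in C17.2 (adjusted p = 0.0213), from 1.79 and 1.52 TPM to 0.79 and 1.05 TPM, and changed by 0.09 in the fit of C3.2 (adjusted p = 0.675). It stood at 0.73 to 0.97 TPM in C3.2 and passed the filter on low values through C17.2 alone, so its call rests on values near the filter. An E-box lay 210 bases before the *ARRDC4* start.
ARRDC4, chr15:97960481-97960510, plus strand: aaacggcctgtgCACGTGcacgccggagcc
The *TXNIP* windows did not hold the letters CACGTG.

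Ratios between genes of the same library do not depend on the scaling between libraries, and are given without a test. *MYC* per *MAX* was 1.65 and 1.64 in parental and 1.10 and 0.990 in resistant libraries of C17.2. In C3.2 it was 2.18 and 2.27 in parental and 2.02 and 1.79 in resistant libraries. The ratio was lower in resistant cells without overlap in both clones, with means in a proportion of 0.636 in C17.2 and 0.856 in C3.2.

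*MYC* was next set against the summed TPM of the antagonists *MNT*, *MXI1*, *MXD3* and *MXD4*. This ratio was 2.52 and 2.64 in parental and 1.82 and 1.72 in resistant libraries of C17.2, and 3.34 and 3.16 in parental and 2.47 and 2.95 in resistant libraries of C3.2. It too was lower in resistant cells of both clones. The sum itself ran from 39.7 to 52.5 TPM and overlapped between parental and resistant libraries in both clones. Divided by *MAX*, the sum was 0.655 and 0.620 in parental and 0.605 and 0.576 in resistant libraries of C17.2, and overlapped in C3.2. *MGA* per *MAX* was 0.275 and 0.264 in parental and 0.334 and 0.322 in resistant libraries of C17.2, and 0.301 and 0.313 in parental and 0.366 and 0.335 in resistant libraries of C3.2. This was the ratio that was higher in resistant cells of both clones without overlap. *PVT1* per *MYC* (0.179 to 0.318) and *MLXIP* per *MLX* (1.18 to 1.49) overlapped between parental and resistant libraries in both clones.

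**Figure D3:**
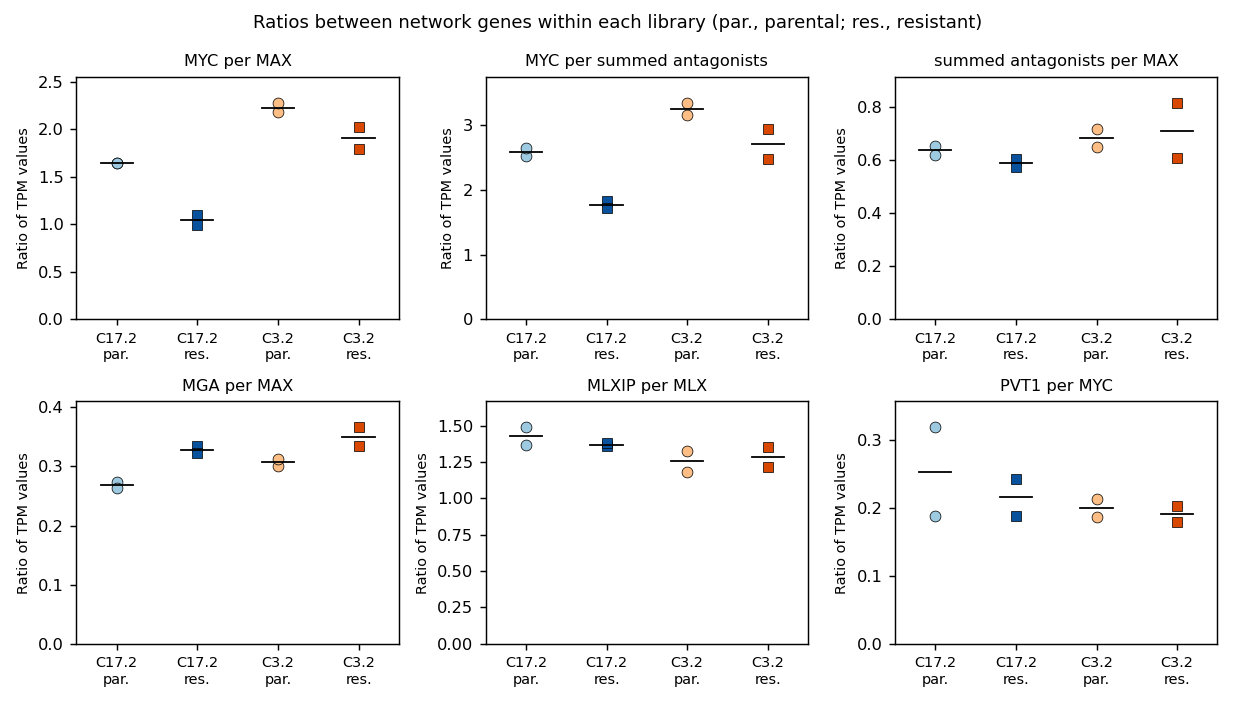
Ratios of TPM values within each library for the 4 groups, with 2 libraries each and the mean as a bar; summed antagonists are *MNT*, *MXI1*, *MXD3* and *MXD4*. *MYC* per *MAX* and *MYC* per summed antagonists are lower, and *MGA* per *MAX* is higher, in resistant libraries of both clones.

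The genes around *MYC* were then examined. Within 3000 kb of the *MYC* start, counted from start site to start site, 18 tested genes were found, and 13 of them were protein coding or long noncoding. This window was set after the values of the listed neighbors had been seen. Of the 13, 3 were higher, 5 lower and 5 not called in C17.2, and 0 were higher, 3 lower and 10 not called in C3.2. The 13 include *MYC* and *PVT1* themselves. Both are among the 5 lower in C17.2, and *MYC* is among the 3 lower in C3.2. Over all tested genes, 27.3% were called in C17.2 and 11.4% in C3.2. *CCDC26*, a long noncoding RNA gene described near enhancers of *MYC* in blood cells, starts 1948 kb after *MYC*. It stood at 52.2 and 51.2 TPM in parental and at 18.2 and 20.7 TPM in resistant libraries of C17.2, and at 59.7 to 62.6 TPM in all 4 libraries of C3.2. *CCDC26* fell by 1.52 on the log2 scale in C17.2 (SE 0.064, adjusted p = 4.63e-05, limma), and its log2 fold change in C3.2 was -0.02 (SE 0.064, adjusted p = 0.908). The changes differed by -1.505 (adjusted p = 0.000661).

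On the other side of *MYC*, *LRATD2* and the lncRNA gene *PCAT1* start close to each other, 1177 and 1179 kb before the *MYC* start. *LRATD2* stood at 3.65 and 4.17 TPM in parental and at 1.33 and 0.88 TPM in resistant libraries of C17.2, and fell by 1.3 (adjusted p = 0.00170, limma). *LRATD2* did not pass the test in C3.2 (-0.41, adjusted p = 0.138). Its changes in the 2 clones differed by -0.89, close to the threshold (adjusted p = 0.0487). *PCAT1* stood at 1.63 and 1.89 TPM in parental and at 0.40 and 0.25 TPM in resistant libraries of C17.2, and at 0.32 to 0.64 TPM in C3.2. It passed the filter on low values through the parental libraries of C17.2 alone, so that its call among the 5 lower genes is no support for a change and its test is not given. Beyond them, *SQLE*, the squalene epoxidase gene of sterol synthesis, went opposite ways, at 0.53 in C17.2 (adjusted p = 0.00163) and -0.30 in C3.2 (adjusted p = 0.0271). *FAM49B* was higher in C17.2 (0.17, adjusted p = 0.0455), as was the lncRNA gene *AC016074.2*, named here to complete the count (0.72, adjusted p = 0.00388), and the SUMO ligase gene *NSMCE2* lower in C3.2 (-0.23, adjusted p = 0.0317). The C3.2 calls of *SQLE*, *NSMCE2* and *MYC* were lost on TPM as deposited, after rescaling over protein-coding genes and after quantile normalization.

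**Figure D4:**
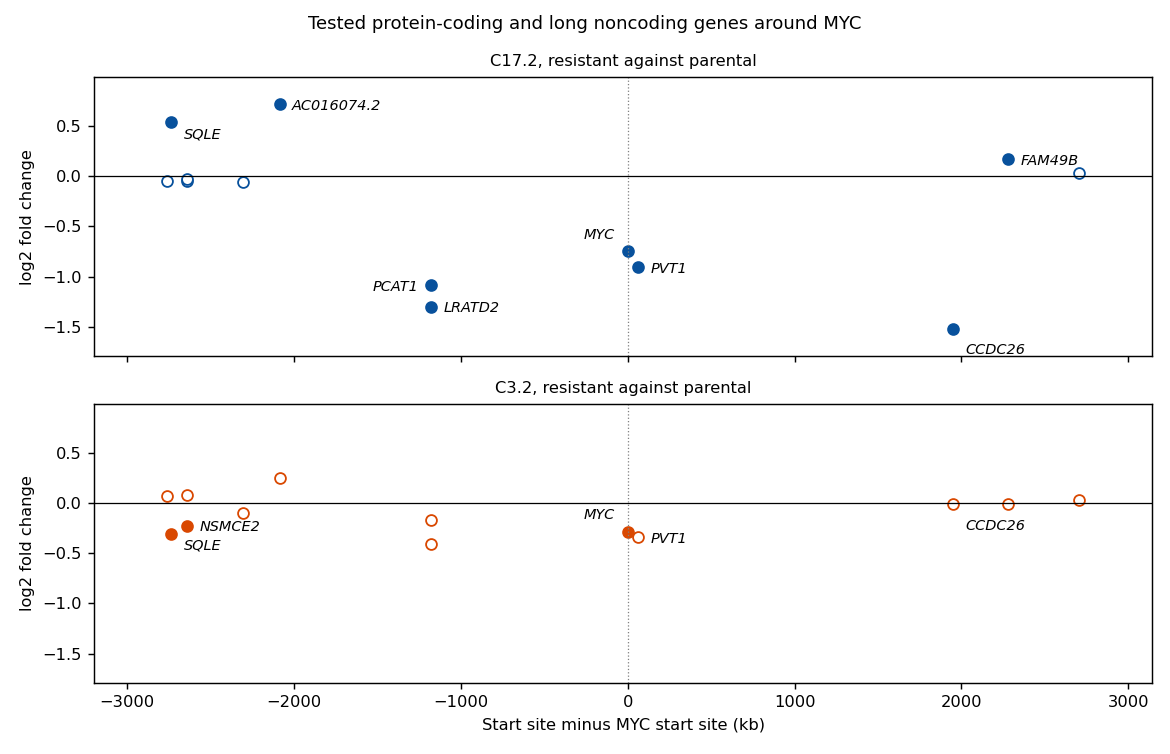
Log2 fold change, resistant against parental, of the 13 tested protein-coding and long noncoding genes within 3000 kb of the *MYC* start, against the distance of their start from that of *MYC*, with C17.2 above and C3.2 below. The 13 include *MYC* and *PVT1*. Filled points have an adjusted p under 0.05 (limma), and *CCDC26* lies at -1.52 in C17.2 and at -0.02 in C3.2.

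Genes whose products assist MYC or turn its protein over were read from lists. Of 16 coactivator genes, all tested, 4 were higher, 2 lower and 10 not called in C17.2, and 1 was lower and 15 not called in C3.2. Over all tested genes, limma called 27.3% in C17.2 and 11.4% in C3.2. *ACTL6A*, an actin-like subunit of chromatin remodelers, was higher by 0.33 in C17.2 (adjusted p = 0.00214, limma), as were the helicases *RUVBL1* (0.22, adjusted p = 0.0179) and *RUVBL2* (0.23, adjusted p = 0.0471). *SMARCB1*, a SWI/SNF subunit that binds MYC, was lower (-0.30, adjusted p = 0.00301). *SMARCB1* was also the coactivator gene lower in C3.2 (-0.19, adjusted p = 0.0344). That call in C3.2 was lost on TPM as deposited and after quantile normalization.

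Of 12 tested genes of MYC protein turnover, 3 were higher and 9 not called in C17.2, and all 12 were not called in C3.2. The 3 of 12 lay near the 27.3% called over all tested genes in C17.2. On TPM as deposited, 6 were called in C17.2, where the share over all tested genes rose to 32.8%. *SKP2*, an F-box protein that ubiquitinates MYC, stood at 24.4 and 22 TPM in parental and at 39.8 and 40.4 TPM in resistant libraries of C17.2, and at 23.4 to 27.7 TPM in C3.2. It rose by 0.61 in C17.2 (SE 0.050, adjusted p = 0.000501, limma), with a difference between the clones of 0.79 (adjusted p = 0.00231). *AURKA*, a kinase that stabilizes *MYC* family proteins, was higher by 0.29 (adjusted p = 0.0128), and *GSK3B*, a kinase that marks MYC for degradation, by 0.22 (adjusted p = 0.0391). MYC protein was not measured in these libraries.

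The output of the network was read from 40 genes known as MYC-induced, of which 39 were tested. In C17.2, 12 were higher, 3 lower and 24 not called, with a median log2 fold change of 0.17 beside 0 over all tested genes. In C3.2, 2 were higher, 3 lower and 34 not called, with a median of 0.01. Among all tested genes, 27.3% were called in C17.2 and 11.4% in C3.2. The difference between the clones passed the threshold for 7 of the 39, all toward higher in C17.2, beside 9.91% of all tested genes. On TPM as deposited, 21 were called in C17.2 and 2 in C3.2, beside 32.8% and 7.94% of all tested genes. With each clone fitted alone, 14 and 0 were called, beside 22.9% and 0.474% of all tested genes.

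The targets with the largest rises in C17.2 were *HSPE1*, *LDHA* and *NME1*. *HSPE1*, the mitochondrial cochaperonin, stood at 70.2 and 69.9 TPM in parental and at 151 and 152 TPM in resistant libraries (0.94, SE 0.060, adjusted p = 0.000185, limma). Over C3.2 it ranged from 136 to 164 TPM over all 4 libraries (adjusted p = 0.748). *LDHA*, the lactate dehydrogenase of glycolysis, stood at 274 and 253 TPM in parental and at 442 and 484 TPM in resistant libraries of C17.2 (0.65, adjusted p = 0.00146), and at 323 to 390 TPM in C3.2. *NME1*, a nucleoside diphosphate kinase, stood at 57.4 and 53.6 TPM in parental and at 95.9 and 95.0 TPM in resistant libraries of C17.2 (0.61, adjusted p = 0.000476), and at 80.3 to 91.3 TPM in C3.2. In each case the parental libraries of C17.2 were lower than all other libraries. *LDHA* and *HSPE1* have processed pseudogenes and *NME1* a close paralog, so that the split of shared reads adds uncertainty to these values.

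The listed targets that were lower in C17.2 were *TERT*, the telomerase catalytic subunit (-0.69, adjusted p = 0.00209, limma), the ribosome factor *WDR74* (-0.33, adjusted p = 0.0142) and the nucleolar *NPM1* (-0.20, adjusted p = 0.0308). *TERT* and *WDR74* were also lower in C3.2 (-0.46, adjusted p = 0.0208, and -0.28, adjusted p = 0.0493). In that clone the translation factor *EIF4E* was lower (-0.28, adjusted p = 0.0489), and *CAD* of pyrimidine synthesis (0.28, adjusted p = 0.0314) and *RIOX2* (0.23, adjusted p = 0.0272) were higher. In the main fit, *TERT* and *WDR74* were thus the listed targets called lower together with *MYC* in both clones. *WDR74* was close to the threshold in C3.2, and the call of *MYC* in that clone held under 2 of 8 alternative settings.

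Of the MYC-induced genes with a promoter window, 18 of 35 held an E-box, against 12.9% of tested genes. The list was drawn up from known direct targets, so this share is not independent evidence. Among targets called higher in C17.2, 6 of 12 held one, and among those not called 11 of 20. The E-boxes of the targets with the largest rises are shown for comparison with those of the network genes above. They lay 22 bases before the *HSPE1* start, 185 and 87 before the *LDHA* start and 34 after the *NME1* start.
HSPE1, chr2:197500345-197500374, plus strand: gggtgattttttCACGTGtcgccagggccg
LDHA, chr11:18394366-18394395, plus strand: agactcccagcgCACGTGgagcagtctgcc
LDHA, chr11:18394464-18394493, plus strand: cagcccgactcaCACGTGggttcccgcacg
NME1, chr17:51153581-51153608, plus strand: agtgctgcgaacCACGTGggtcccgggc

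Of 10 genes known as MYC-repressed, 7 were tested. In C17.2, 1 was higher, 3 lower and 3 not called, and in C3.2, 3 were lower and 4 not called. For comparison, 27.3% and 11.4% of all tested genes were called in C17.2 and C3.2. The count in C3.2 depended on the setting. It was 2 on TPM as deposited and 2 after rescaling over protein-coding genes, beside 7.94% and 15.6% of all tested genes. With no filter on low values it was 1. *CDKN1A*, the p21 inhibitor of cyclin-dependent kinases, stood at 60.0 and 56.2 TPM in parental and at 43.5 and 46.6 TPM in resistant libraries of C17.2, and at 47.6 and 51.4 TPM in parental and at 36.2 and 38.7 TPM in resistant libraries of C3.2. It fell in both clones (-0.52, adjusted p = 0.00211, and -0.46, adjusted p = 0.00918, limma), as did the stress gene *GADD45A* (-0.70, adjusted p = 0.0132, and -0.61, adjusted p = 0.0436). The myeloid regulator *CEBPA* fell in C17.2 (-0.54, adjusted p = 0.00195), and the receptor gene *PDGFRB* in C3.2 (-0.92, adjusted p = 0.0296). *NDRG2* rose in C17.2 (0.83, adjusted p = 0.00431), from 2.13 and 1.88 TPM to 4.25 and 5.51 TPM, and the change differed between the clones by 1.18 (adjusted p = 0.0116).

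**Figure D5:**
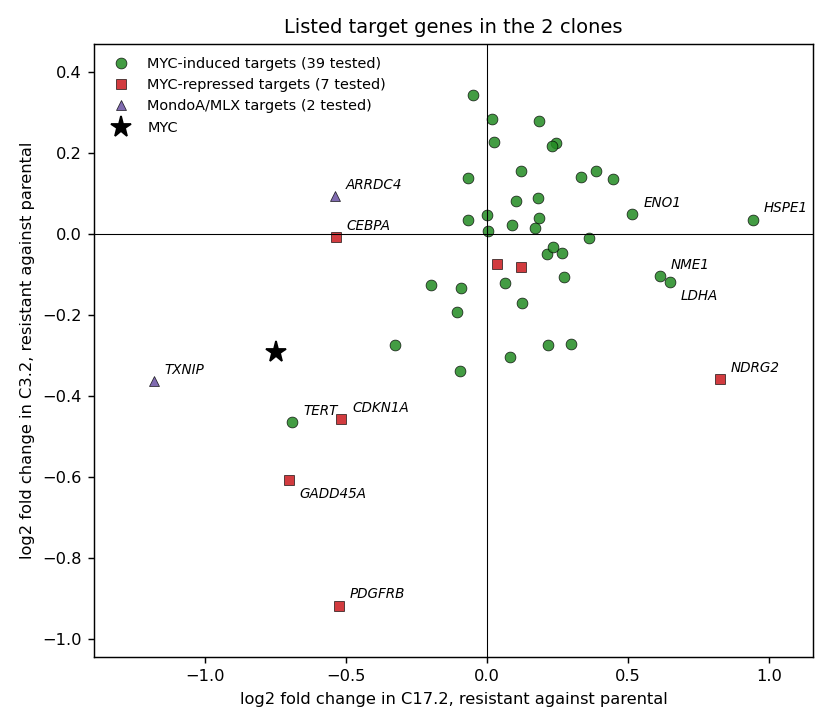
Log2 fold change, resistant against parental, of the listed and tested target genes in C17.2 (horizontal) and C3.2 (vertical): 39 MYC-induced genes (circles), 7 MYC-repressed genes (squares), 2 MLXIP-MLX targets (triangles) and *MYC* itself (star, at -0.75 and -0.29). *HSPE1* lies farthest to the right at 0.94 and *TXNIP* farthest to the left at -1.18.

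Finally, the tested protein-coding genes with a mean of at least 10 TPM were ranked by how closely their profile over the 8 libraries followed that of *MYC* or *PVT1*, as the root mean square (RMS) difference of centred log2 values. For *MYC*, with 6390 candidates, the closest was *SNX22*, a sorting nexin, with an RMS difference of 0.043 against an own RMS of 0.40 for *MYC*. It stood at 23.3 and 20.8 TPM in parental and at 15.0 and 14.6 TPM in resistant libraries of C17.2, and at 25.6 and 25.3 TPM in parental and at 23.6 and 20.8 TPM in resistant libraries of C3.2. *SLC25A6* (0.084), *HIST1H2AB* (0.089), *HIST1H4A* (0.093) and *KLHL24* (0.093) followed, of which the histone genes have near-identical copies and are uncertain. For *PVT1*, with 6391 candidates and an own RMS of 0.43, the closest were *GYPC* (0.18), *IRF1* (0.18), *SPI1* (0.19), *ELL3* (0.20) and *ACSF2* (0.20). The RMS differences of the closest profiles were thus smaller for *MYC* than for *PVT1*. *PVT1* itself spread widely between the parental libraries of C17.2 (42.0 and 23.0 TPM), so these RMS differences do not compare the 2 genes on equal terms.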

How the data were processed

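RNA of 8 libraries (ribosomal RNA depleted) was measured by sequencing. The authors trimmed reads with Trim Galore 0.6.3, aligned them to hg38 with STAR 2.7.9a and quantified genes with RSEM 1.3.1 against Gencode annotation, and deposited one table of TPM values, which keep no read depth, so that depth and counting error are unknown. Whether counting used strand is not given in the sources used here. Positions and overlaps come from Gencode 44, matched by gene identifier.

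From the deposited TPM, genes with at least 1 TPM in at least 1 library were kept, libraries were scaled by the trimmed mean of log2 ratios (30% of ratios and 5% of means trimmed at each end), and log2(scaled TPM + 1) was fitted in limma 3.58.1 (R 4.3.3; lmFit, eBayes with trend) with 4 groups in 1 fit. Benjamini-Hochberg adjustment ran over all tested genes, with a threshold of 0.05. Voom weights, used in the study, require counts and were left out. Alternatives were TPM as deposited, rescaling over protein-coding genes, quantile normalization, another pseudocount, other filters, each clone fitted alone, no trend, and leaving out each library. Samples were grouped by the clone and treatment labels. Members and gene lists were chosen with earlier results of these data known. Named list genes are those past the threshold in either clone with the 3 largest changes in each direction; a few others are named to complete counts. For 1 listed gene, the result is not reported here.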

Additional observations from a re-analysis of the deposited data

Results flagged for a closer look

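The fall of *MYC* differed between the clones, by a direct test of the difference: the log2 change in C17.2 minus that in C3.2 was -0.46 (SE 0.083, adjusted p = 0.0225, limma). In C17.2 both resistant libraries lay below both parental ones (84.4 ± 5.00 against 127 ± 6.72 TPM, SD, n = 2 each), and the same order held in C3.2 (121 ± 5.59 against 142 ± 0.163 TPM, SD, n = 2 each). The difference stayed past the threshold under 6 of 7 alternative settings, the exception being TPM as deposited (-0.36, adjusted p = 0.0710). It was lost without either parental library of C17.2, either parental library of C3.2 or the second resistant library of C3.2 (adjusted p up to 0.0922). With 2 libraries per group, no group was large enough to look for single outlying libraries.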

How the results depend on the processing

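No paired analysis was possible because the labels give the libraries no shared replicate numbers. The number of members called in C17.2 was 5, and it was 2 on TPM as deposited and 2 with each clone fitted alone. In C3.2 it was 1, became 2 after rescaling over protein-coding genes (*MGA* and *MLXIP*) and 0 on TPM as deposited, after quantile normalization, with no filter on low values, with each clone fitted alone and without the intensity trend. For the difference it was 1, and 0 on TPM as deposited. All tested genes called in C3.2 numbered 1773, 1173 with no filter and 74 with the clone fitted alone. Leaving out 1 library at a time gave 1 to 5 members in C17.2, 0 to 1 in C3.2 and 0 to 1 for the difference, and 2374 to 4552, 325 to 1785 and 541 to 1747 genes. The gene count moved by over 1.5 times in C17.2 without its first parental (2374), second parental (2522) or second resistant library (2636). It did so in C3.2 without either parental library of C17.2 (1010 and 995) or its own parental (325 and 396) or second resistant library (849), and for the difference without any library of C17.2 (541 to 861) or either parental library of C3.2 (558 and 598). The cause was not tested.

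Directions turned for members that were not called. On TPM as deposited, the log2 fold change was 0.0597 for *MAX*, 0.107 for *MLX* and 0.0538 for *MLXIP* in C17.2, 0.0106 for *MXD3* in C3.2 and 0.0601 for the *MAX* difference. After rescaling over protein-coding genes it was 0.0336 for *MLX* in C17.2 and 0.0364 for *MAX* and 0.0461 for *MXD3* in C3.2. Without single libraries it ran from -0.0347 to 0.0376 for *MNT* and -0.121 to 0.0267 for *MLX* in C17.2. In C3.2 it ran from -0.141 to 0.00885 for *MAX*, -0.262 to 0.156 for *MXD3*, -0.0360 to 0.0811 for *MXD4* and -0.00687 to 0.111 for *MLX*. The differences ran from -0.108 to 0.0413 for *MAX*, -0.242 to 0.0276 for *MXI1* and -0.316 to 0.102 for *MXD3*. Depth cannot be read from TPM, and 2 libraries per group limit every call.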

Other observations

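Parental levels of several network genes lay apart between the clones on TPM as deposited. *MAX* stood at 77.5 ± 3.78 TPM in parental C17.2 and at 63.7 ± 1.86 TPM in parental C3.2 (SD, n = 2 each). *MLXIP* stood at 30.1 ± 0.863 and 22.1 ± 0.926 TPM, and *MYC* at 127 ± 6.72 and 142 ± 0.163 TPM. After scaling, parental *MAX* was at 76.4 and 75.8 TPM in C17.2 and at 72.7 and 67.6 TPM in C3.2. Scaled *MLXIP* was at 29.2 and 29.8 against 24.0 and 24.7 TPM, and scaled *MYC* at 126 and 124 against 158 and 154 TPM. The size of these gaps thus depends on the scaling, with that of *MAX* smaller and that of *MYC* larger after it. *MYC* per *MAX* was 1.64 ± 0.00642 in parental C17.2 and 2.23 ± 0.0676 in parental C3.2. The library titles of the 2 clones begin with separate runs of numbers, whose meaning the labels do not give, so that the clone and whatever these numbers mark cannot be told apart. These levels were not tested.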
